A study of Homo sapiens with 15 samples.

Results

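The genes described here encode the enzymes that carry glucose 6-phosphate down the glycolytic pathway to pyruvate, from GPI to PKM. They were picked by symbol, as GPI, ALDOA, ALDOC, TPI1, GAPDH, PGK1, PGAM1, ENO1, ENO2 and PKM. All 10 were listed in both deposited tables, as 10 of 16382 genes for MRC5 cells and 10 of 16076 genes for H196 cells, and all 10 passed the filter on low counts in each. MRC5 cells are fibroblasts of human lung. H69 is a neuroendocrine (NE) small cell lung cancer (SCLC) line and H196 a non-NE SCLC line. The fibroblasts were cultured for a week on their own as MRC5_Mo, next to H69 as MRC5_coH69, and next to H196 as MRC5_coH196. H196 was likewise kept on its own as H196_Mo and next to the fibroblasts as H196_Co. In co-culture the partner cells sat on a transwell insert, a membrane that passes soluble molecules, and the sequenced cells grew in the well below. No group carried a genetic change or a drug, each line stood for its kind of cell alone, and RNA of the H69 cells was not analysed here. There were 3 libraries per group, 15 in all. The study calls them parallel replicates and does not say that they came from separate cultures, so p-values measure the spread between these libraries, which may be technical.

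Glycolysis splits glucose into pyruvate with a gain of ATP and NADH, and its enzymes are among the most abundant proteins of most cells. GPI isomerises glucose 6-phosphate to fructose 6-phosphate, and the aldolases ALDOA and ALDOC cut the phosphorylated fructose into 3-carbon sugars that TPI1 interconverts. GAPDH oxidises glyceraldehyde 3-phosphate, PGK1 makes ATP, PGAM1 moves the phosphate group, the enolases ENO1 and ENO2 remove water to give phosphoenolpyruvate, and PKM makes ATP and pyruvate. ALDOC is known as the brain aldolase and ENO2 as the gamma or neuron-specific enolase, which serves as a serum marker of NE tumours including SCLC. GAPDH is often used as a reference gene in PCR. Several genes of the pathway are textbook targets of the hypoxia-inducible factor HIF-1, which binds response elements with a core of ACGTG or GCGTG.

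All libraries held 16073597 to 19170560 counts. FPKM (fragments per kilobase of gene, scaled to the mapped fragments of a library) is the authors' value and is used for levels, while log2 fold changes come from the expected counts with edgeR's quasi-likelihood test. A gene was called higher or lower when its Benjamini-Hochberg adjusted p was under 0.05 and its log2 fold change was beyond 0.58 in either direction, the limit used in the study. The 10 fibroblast markers summed to 5176 to 5780 FPKM per library in MRC5_Mo, 5968 to 6154 in MRC5_coH69, 2566 to 2718 in MRC5_coH196 and 0.50 to 0.64 in the H196 libraries. Among them COL1A1 and COL3A1 were called lower in MRC5_coH196 than in MRC5_Mo, with log2 fold changes of -1.57 and -2.09, PDGFRB was called higher and the other 7 were not called, and the part of these markers in the results was not tested. Of the 10 NE markers, CHGB, SCG2, SYP and DLL3 had mean levels of 4.04 to 21.9 FPKM in H196 cells while CHGA and NEUROD1 were at 0.197 or less and INSM1 and GRP were at 0 or not listed. Their sum ran from 52.3 to 55.7 FPKM in H196 libraries, 0.83 to 1.18 in MRC5_Mo and 0.66 to 1.14 in MRC5_coH196, so the sums of the fibroblasts grown alone and with H196 cells overlapped. These are bulk libraries, in which a change in the number of cells with a given level and a change in RNA per cell cannot be told apart.

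The sequences before the start sites are shown because 8 of the 10 genes carry the core letters there. RefSeq start sites on GRCh38.p14 gave 13 windows of 250 bases for the 10 genes, with 3 for ALDOA and 2 for TPI1. The letters ACGTG or GCGTG, on either strand and with overlapping matches counted as 1 site, stood in 10 of these windows. Of all 35116 promoter windows listed by RefSeq, 43.2% held at least 1 site, 16.2% at least 2 and 5.56% at least 3. The GC content of the windows was not matched. PGK1 held 3 sites, ALDOC 4, ENO1 2, ALDOA 1 in each of its 3 windows, TPI1 2 in 1 of its 2 windows, and GPI, GAPDH and ENO2 1 each. The stretches of PGK1, ENO1 and ALDOC end where the outermost annotated transcript of each gene begins, which leaves 2 of the 4 ALDOC sites in view, and capitals mark the core letters.

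PGK1 (chrX:78103998-78104247, strand plus): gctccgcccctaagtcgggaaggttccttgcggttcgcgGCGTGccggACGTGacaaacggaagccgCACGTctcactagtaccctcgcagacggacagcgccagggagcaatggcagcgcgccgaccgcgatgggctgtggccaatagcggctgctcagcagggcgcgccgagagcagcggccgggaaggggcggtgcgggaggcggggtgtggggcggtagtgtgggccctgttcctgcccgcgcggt

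ENO1 (chr1:8878689-8878936, strand minus): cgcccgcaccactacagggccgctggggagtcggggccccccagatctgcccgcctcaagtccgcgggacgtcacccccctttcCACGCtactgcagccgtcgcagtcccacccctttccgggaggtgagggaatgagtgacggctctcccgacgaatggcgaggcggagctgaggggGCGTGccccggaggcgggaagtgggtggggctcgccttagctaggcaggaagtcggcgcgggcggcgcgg

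ALDOC (chr17:28576964-28577145, strand minus): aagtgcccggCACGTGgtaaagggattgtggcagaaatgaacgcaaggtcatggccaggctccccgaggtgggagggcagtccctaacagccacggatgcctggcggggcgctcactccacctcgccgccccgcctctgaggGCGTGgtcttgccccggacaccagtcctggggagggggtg

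The other genes with a site are shown as short stretches around it. These sites lie within annotated transcripts of their genes, except the ALDOA site 178 bases before its start, which lies before all of them. A further ALDOA site, 198 bases before another start, is not shown. ENO2 had a single site, which began 118 bases before its start. The palindrome CACGTG, which holds ACGTG on both strands, stood 81 bases before the GAPDH start and 112 bases before an ALDOA start.

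ENO2 (chr12:6914452-6914476, strand plus): ccgcgctcgtACGTGcgcctccgcc

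GAPDH (chr12:6535173-6535198, strand plus): tctgcggggtCACGTGtcgcagagga

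ALDOA (chr16:30064091-30064115, strand plus): ttcccctccaCACGTcaacgattct

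ALDOA (chr16:30064375-30064400, strand plus): gcagggaggcCACGTGatccgagtcc

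GPI (chr19:34364820-34364844, strand plus): actgcctgtaACGTGgaaggtgttc

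TPI1 (chr12:6868027-6868051, strand plus): aggctgggccGCGTGggcttcccgc

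TPI1 (chr12:6868078-6868102, strand plus): tgcgccgccgCACGTagccccagac

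PGAM1 and PKM had no match in their windows. A match is a description of these letters and not a sign that a factor binds there, and its absence covers only the window searched.

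Levels differed widely between the genes, and the order shifted with the culture. GAPDH was the highest and ALDOC the lowest of the 10 in every group. GAPDH had 6271 ± 167 FPKM (SD, n = 3) in MRC5_Mo, where it ranked 4 among all listed genes, and 19035 ± 1328 in H196_Co, where it ranked 1. In MRC5_Mo the order below it was PKM, ENO1, ALDOA, TPI1, PGAM1, GPI, PGK1, ENO2 and ALDOC, and of these neighbours only GPI and PGK1 had overlapping libraries. MRC5_coH69 kept that order apart from GPI and PGK1, which changed places and again overlapped, and there ENO1 and ALDOA overlapped too. In MRC5_coH196 ALDOA and ENO1 stood above PKM, and ENO2 had passed GPI to reach the range of PGK1 (307 ± 16.6 against 323 ± 6.07 FPKM), with overlapping libraries. In H196_Mo ENO1 was second to GAPDH, with 3116 ± 132 FPKM, and PKM and TPI1 overlapped. In H196_Co the libraries of ENO1 and ALDOA overlapped, and GPI, PGAM1 and PGK1 lay together at 705 ± 32.4, 698 ± 13.1 and 698 ± 24.0 FPKM. The 10 genes together held 2.06% ± 0.0358 (SD, n = 3) of the summed FPKM in MRC5_Mo, 2.08% ± 0.0532 in MRC5_coH69, 3.85% ± 0.146 in MRC5_coH196, 2.91% ± 0.0939 in H196_Mo and 4.75% ± 0.0854 in H196_Co. GAPDH alone made up 51.9% to 57.9% of the 10 genes' FPKM in any library.

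**Figure D1:**
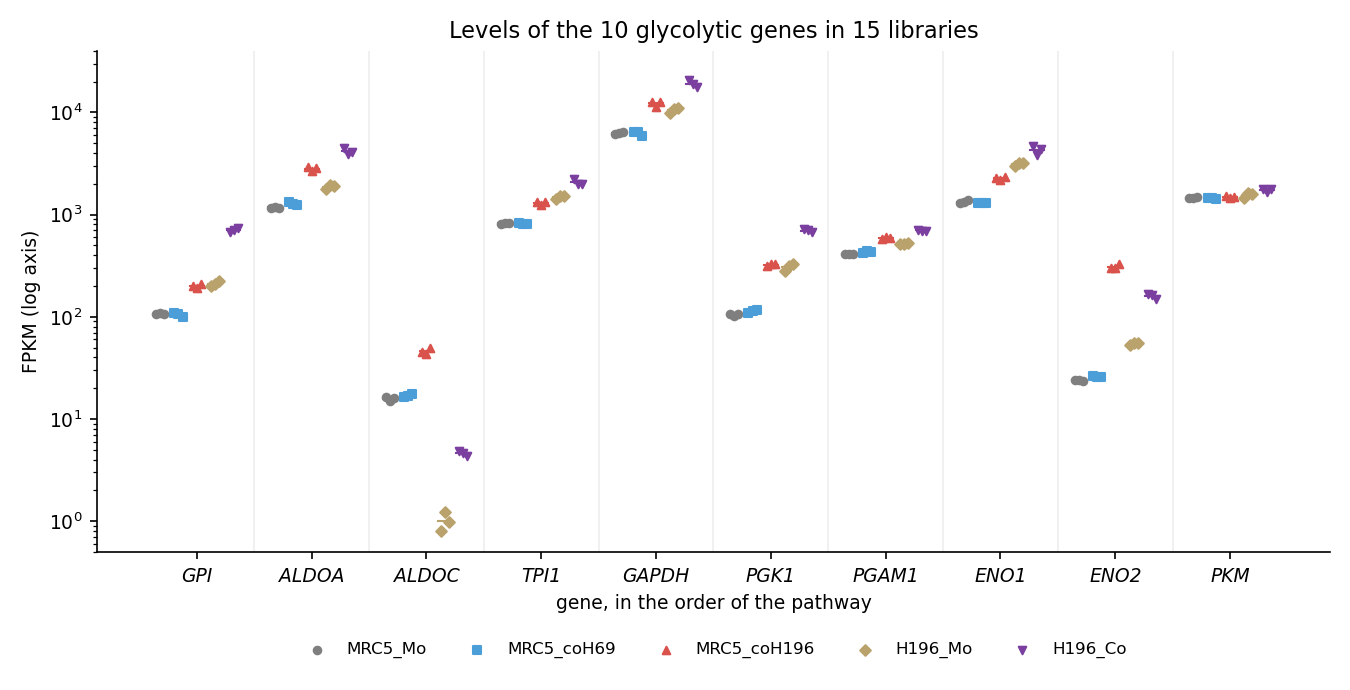
FPKM on a log axis of each of the 10 genes in the 15 libraries, with genes in the order of the pathway, points for libraries and short lines for group means. MRC5_coH196 points lie above MRC5_Mo and MRC5_coH69 points for every gene but PKM, H196_Co points lie above H196_Mo points for all 10 genes, and ALDOC is near 1 FPKM in H196_Mo.

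The first comparison sets fibroblasts grown next to H196 cells against those grown alone. The study grew fibroblasts and tumour lines in different media and does not state the medium of the co-cultures. A part of the medium in the differences from mono-culture was not tested. Against MRC5_Mo, 9 of the 10 genes rose in MRC5_coH196 cells and PKM did not pass the fold change limit, where 17.2% of the 12819 genes tested were called higher and 31.9% in either direction. The median log2 fold change was 1.11 over the 10 genes and -0.00 over all genes. Overlap of libraries is described gene by gene below, and the share of all genes without overlap is not reported for this comparison. Lack of overlap alone therefore does not set a gene apart here. ENO2 rose far more than the rest, by 14.4-fold, and PGK1, ALDOC and ALDOA followed at 3.49-fold, 3.28-fold and 2.70-fold.

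ENO2 (gene ID 2026, GRCh38.p13 chromosome 12, 6914450 to 6926059) had 24.2, 24.2 and 23.65 FPKM in the MRC5_Mo libraries and 298, 297 and 326 FPKM in the MRC5_coH196 libraries. No library came near the other group, and the counts behind these values were 884 to 916 and 11011 to 12535. The log2 fold change was 3.85 (standard error, SE, 0.05, adjusted p = 1.05e-26 with edgeR), rank 52 of 12819 genes, and it took ENO2 from rank 3205 to rank 259 by FPKM. ENO1 (2023, chromosome 1, 8858113 to 8878688), the enolase of most tissues, had 1295, 1322.5 and 1382 FPKM in MRC5_Mo and 2277, 2182 and 2313 in MRC5_coH196. It too was higher in every co-cultured library, with a log2 fold change of 0.94 (SE 0.04, adjusted p = 3.47e-16).

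Both aldolases rose together. ALDOA (226, chromosome 16, 30064279 to 30070420) had 1156, 1192 and 1170.5 FPKM in MRC5_Mo and 2898, 2674 and 2855 in MRC5_coH196, which is 1.43 on the log2 scale (SE 0.04, adjusted p = 1.59e-19). ALDOC (230, chromosome 17, 28573115 to 28576963) had 16.4, 14.9 and 15.9 FPKM in MRC5_Mo and 45.5, 43.1 and 49.2 in MRC5_coH196, a log2 fold change of 1.71 (SE 0.06, adjusted p = 6.34e-18). For neither gene did the groups overlap. ALDOC stayed about 61.2-fold below ALDOA in MRC5_coH196 cells.

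Among the enzymes that yield energy, PGK1 (5230, chromosome X, 78104248 to 78129295) had 105, 102 and 106 FPKM in MRC5_Mo and 316, 328 and 325 in MRC5_coH196. Its groups were well apart, with a log2 fold change of 1.80 (SE 0.04, adjusted p = 4.32e-22). GAPDH (2597, chromosome 12, 6534517 to 6538371) had 6091, 6299 and 6422 FPKM in MRC5_Mo against 12505, 11394 and 12684 in MRC5_coH196. This gene with the highest level of the 10 rose by a log2 fold change of 1.13 (SE 0.05, adjusted p = 1.55e-16), so it differed between cultures by more than the spread of its libraries. PKM (5315, chromosome 15, 72199029 to 72231389) had 1445, 1452 and 1486 FPKM in MRC5_Mo and 1524, 1466.5 and 1470.3 in MRC5_coH196. Its groups overlapped in FPKM, and the log2 fold change from counts was 0.20 (SE 0.04, adjusted p = 7.51e-05), under the fold limit. With limma on log2(FPKM + 1) it was 0.03 (adjusted p = 0.551). PKM gives rise to the splice forms PKM1 and PKM2, which these gene-level values do not separate.

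The remaining enzymes rose less than ENO2, PGK1, ALDOC and ALDOA. GPI (2821), which the table lists on more than 1 contig and which is given no position here, had 106, 108 and 106 FPKM in MRC5_Mo and 198, 189 and 211 in MRC5_coH196, a log2 fold change of 1.08 (SE 0.04, adjusted p = 1.23e-17). TPI1 (7167, chromosome 12, 6866834 to 6870948) had 803, 835 and 835 FPKM against 1340.4, 1234 and 1329, a log2 fold change of 0.83 (SE 0.04, adjusted p = 9.89e-15). PGAM1 (5223, chromosome 10, 97426191 to 97433444) had 415, 414 and 412 FPKM against 579.7, 603 and 595, a log2 fold change of 0.69 (SE 0.04, adjusted p = 2.61e-14). None of these groups overlapped, but PGAM1 lay close to the limit, and on log2(FPKM + 1) its value of 0.52 fell short of it. On that scale the median of all genes was -0.13 and on log2(FPKM + 0.1) -0.18, where it was -0.00 from counts. The near-identical copy PGAM4 had 0 to 5.1 expected counts in any library, and GAPDH and several others have processed pseudogenes with which reads could be shared.

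With H69 cells as partner, the same fibroblasts showed 0 of the 10 genes called, where 0.554% of the genes tested were called in either direction. The log2 fold changes ran from -0.02 (ENO1) to 0.13 (ALDOA), with a median of 0.05 against -0.00 over all genes. ENO2 had 26.1, 26.04 and 25.5 FPKM in MRC5_coH69, just above the MRC5_Mo libraries, for a log2 fold change of 0.12 (SE 0.06, adjusted p = 0.231 with edgeR). PGK1 had 108, 114 and 117 FPKM, a log2 fold change of 0.13 (SE 0.04, adjusted p = 0.0577), and ALDOA had 1312, 1278 and 1249 FPKM, a log2 fold change of 0.13 (SE 0.04, adjusted p = 0.0656). These 3 genes were the ones under an unadjusted p of 0.05 (0.0441, 0.00431 and 0.00532). Their libraries and those of ALDOC and PGAM1 did not overlap with MRC5_Mo on CPM (counts scaled to library size), where 13.6% of all genes tested were higher without overlap. The count called was also 0 with DESeq2 and with limma, although PGK1 passed the adjusted p alone in DESeq2 (0.0256, log2 fold change 0.12), as did PGK1 and ALDOA with edgeR on only the groups compared (0.0449 and 0.0297). GAPDH had 6361, 6369 and 5914 FPKM and overlapped with MRC5_Mo, with a log2 fold change of -0.01 (SE 0.05). The SEs of the 10 values were 0.04 to 0.07.

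Set against each other, the co-cultures differed for 9 of the 10 genes, all higher in MRC5_coH196 than in MRC5_coH69 cells, where 15.2% of genes tested were called higher. The differences ran from 0.62 for PGAM1 to 3.73 for ENO2 (SE 0.05, adjusted p = 1.82e-26 with edgeR). PKM differed by 0.20 (adjusted p = 6.72e-05), under the limit. All 3 comparisons of the fibroblasts draw on the same 9 libraries, and both comparisons with mono-culture share the MRC5_Mo libraries, so they are not independent of each other.

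**Figure D2:**
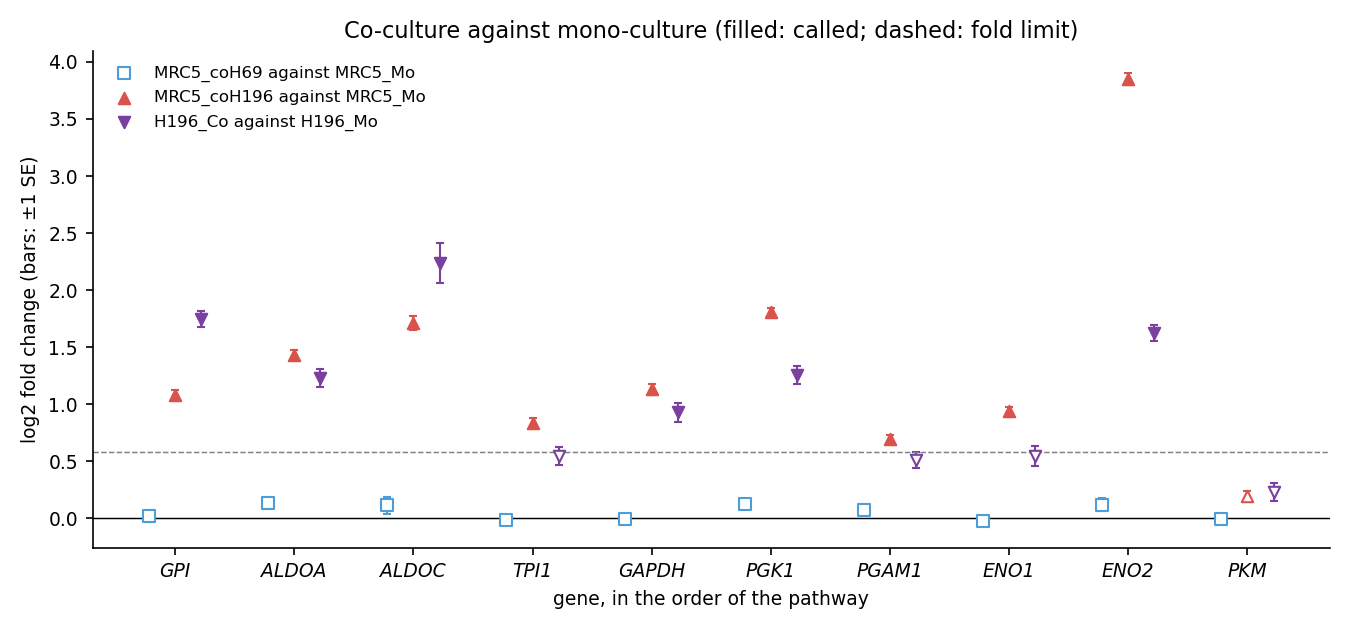
Log2 fold change of each gene in MRC5_coH69 and MRC5_coH196 against MRC5_Mo and in H196_Co against H196_Mo, with bars of 1 SE, filled points for genes called and a dashed line at the limit of 0.58. All MRC5_coH69 points lie between -0.02 and 0.13, ENO2 stands at 3.85 in MRC5_coH196, and 6 genes are filled in H196_Co.

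The reciprocal comparison sets H196 cells grown next to fibroblasts against those grown alone, and a part of the medium was not tested here either. In H196_Co against H196_Mo, 6 of the 10 genes rose, namely GPI, ALDOA, ALDOC, GAPDH, PGK1 and ENO2, where 3.26% of the 12806 genes tested were called higher. The other 4 had log2 fold changes between 0.23 and 0.55. The median over the 10 genes was 1.08 and over all genes -0.00. With no fold limit all 10 passed the adjusted p with higher values, as did 12.0% of the genes tested. All 10 were higher in every co-cultured than in every mono-cultured library on CPM, as were 20.2% of the genes tested.

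GPI had the largest log2 fold change of the 10 in this line after ALDOC. It had 199, 210.2 and 225 FPKM in H196_Mo and 675, 701 and 739 in H196_Co. The groups lay far apart, and the log2 fold change of 1.75 (SE 0.07, adjusted p = 5.66e-13 with edgeR) ranked 15 of 12806. ENO2 had 53.4, 55.5 and 55.4 FPKM in H196_Mo and 168, 162 and 149.6 in H196_Co. It did not overlap either, with a log2 fold change of 1.62 (SE 0.07, adjusted p = 1.95e-12), rank 26, and moved from rank 1632 to 527 by FPKM. ALDOC had 0.81, 1.23 and 0.98 FPKM in H196_Mo, from 18 to 29 counts, and 4.85, 4.65 and 4.38 in H196_Co, from 100 to 111 counts. Its log2 fold change of 2.24 was the sixth largest of all genes tested, but with the widest SE of the 10 (0.18, adjusted p = 1.84e-08) and at a level that stayed below 5 FPKM. On log2(FPKM + 1) it was 1.49.

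PGK1 had 283, 311 and 327 FPKM in H196_Mo and 718, 704 and 671 in H196_Co, a log2 fold change of 1.26 (SE 0.08, adjusted p = 5.62e-10). ALDOA had 1767, 1958 and 1898 FPKM against 4436, 3953 and 4087, a log2 fold change of 1.23 (SE 0.08, adjusted p = 1.09e-09). GAPDH had 9942, 10790.4 and 10933 FPKM against 20472, 18778 and 17853, a log2 fold change of 0.93 (SE 0.08, adjusted p = 1.35e-07). In all of these the lowest co-cultured library exceeded the highest mono-cultured library.

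The 4 genes not called kept their groups apart by less. ENO1 had 2964, 3179 and 3204 FPKM in H196_Mo and 4645, 3834 and 4425 in H196_Co, the largest coefficient of variation of the 10 genes there, with a log2 fold change of 0.55 (SE 0.09, adjusted p = 0.000154). TPI1 had 1409, 1534 and 1520.1 FPKM against 2226, 1981 and 1972, a log2 fold change of 0.55 (SE 0.08, adjusted p = 5.12e-05). Without H196_Co replicate 2 both passed the limit, at 0.63 for ENO1 and 0.584 for TPI1, and TPI1 did so without H196_Mo replicate 2 too, at 0.581. PGAM1 had 509.5, 521 and 525 FPKM against 713, 687 and 695, a log2 fold change of 0.51 (SE 0.07, adjusted p = 2.7e-05). PKM had 1466, 1623 and 1591 FPKM against 1764, 1651 and 1788, a log2 fold change of 0.23 (SE 0.08, adjusted p = 0.0415). With the replicate number as a block the adjusted p of PKM was 0.108, and on log2(FPKM + 1) it was 0.206.

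Whether a gene responded alike in both lines was tested directly, as the log2 fold change in MRC5_coH196 minus that in H196_Co, over the 15 libraries and 13585 genes. With the fold limit, 2 of the 10 genes differed, ENO2 and GPI, where 24.7% of genes tested did. By adjusted p alone 6 differed, against 51.2% of all genes. ENO2 rose more in the fibroblasts, by 2.20 (SE 0.08, adjusted p = 1.05e-17 with edgeR), and GPI rose more in the tumour cells, with a value of -0.69 (SE 0.07, adjusted p = 4.64e-09). PGK1, ENO1 and TPI1 rose more in the fibroblasts by 0.52, 0.36 and 0.26, and ALDOC had -0.55. The values of ALDOA (0.18, SE 0.09), GAPDH (0.17, SE 0.09), PGAM1 (0.16, SE 0.07) and PKM (-0.06, SE 0.08) did not pass the adjusted p, though ALDOA, GAPDH and PGAM1 did with DESeq2 (0.0148, 0.0284 and 0.000614). The culture media and the table of origin differ between the lines too.

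**Figure D3:**
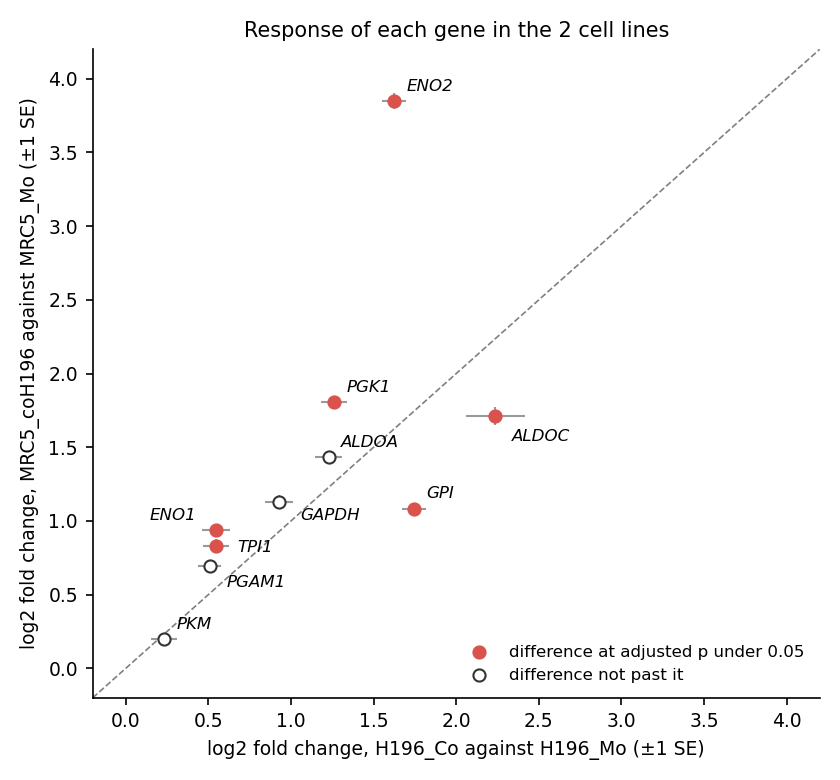
Log2 fold change of each gene in MRC5_coH196 (vertical) against that in H196_Co (horizontal), with bars of 1 SE, a dashed line of equal response and filled points where the difference had an adjusted p under 0.05. ENO2 lies far above the line (3.85 against 1.62), GPI (1.08 against 1.75) and ALDOC (1.71 against 2.24) lie below it, and ALDOA, GAPDH, PGAM1 and PKM are not filled and lie near it.

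The starting levels of the mono-cultures differed between the lines. Against MRC5_Mo, H196_Mo had higher PGK1, ENO1, ENO2 and GPI (log2 fold changes 1.12, 0.79, 0.75 and 0.66) and lower ALDOC (-4.36, SE 0.13, adjusted p = 9.16e-23 with edgeR), so 5 of the 10 were called, where 61.7% of all genes were. ALDOC was at 15.8 ± 0.770 FPKM in MRC5_Mo and 1.01 ± 0.211 in H196_Mo. TPI1, GAPDH, ALDOA, PGAM1 and PKM lay between -0.35 and 0.41 and were not called. Line, culture medium and any batch between the tables cannot be told apart here.

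The balance between isozymes was taken as the share of the minor gene in the FPKM of a pair. ENO2 made up 1.77% ± 0.0787 (SD, n = 3) of the summed ENO1 and ENO2 FPKM in MRC5_Mo, 1.94% ± 0.0259 in MRC5_coH69 and 12.0% ± 0.391 in MRC5_coH196. The libraries ran from 1.68% to 1.83%, from 1.91% to 1.96% and from 11.6% to 12.4%, so the groups did not overlap. ENO1 was 55.5-fold above ENO2 in MRC5_Mo and 7.36-fold above it in MRC5_coH196. In H196 cells the share was 1.73% ± 0.0370 alone, within the range of fibroblasts grown alone, and 3.61% ± 0.408 with MRC5 cells, where libraries ran from 3.27% to 4.06%. The share of ALDOC in ALDOA and ALDOC in the fibroblasts was 1.33% ± 0.0840 in MRC5_Mo, 1.31% ± 0.0650 in MRC5_coH69 and 1.61% ± 0.0765 in MRC5_coH196. It was 0.0534% ± 0.00862 in H196_Mo and 0.111% ± 0.00552 in H196_Co, and none of these co-culture groups overlapped with its mono-culture apart from MRC5_coH69. In an exact two-sided permutation test 7 of the 8 comparisons of shares gave p = 0.1, the smallest that 3 libraries against 3 allow, and ALDOC in MRC5_coH69 gave p = 0.8. Adjusted over the 8 tests the former became 0.114, so no share could pass the threshold in this design. Of 8 other isozymes of these steps, only ENO3 passed the filter on low counts in the MRC5 table. ENO3, the muscle enolase, had 1.62 ± 0.0721 FPKM in MRC5_Mo and 2.47 ± 0.393 in MRC5_coH196, from 35 to 62 counts per library, and rose with a log2 fold change of 0.77 (SE 0.18, adjusted p = 0.000547 with edgeR).

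**Figure D4:**
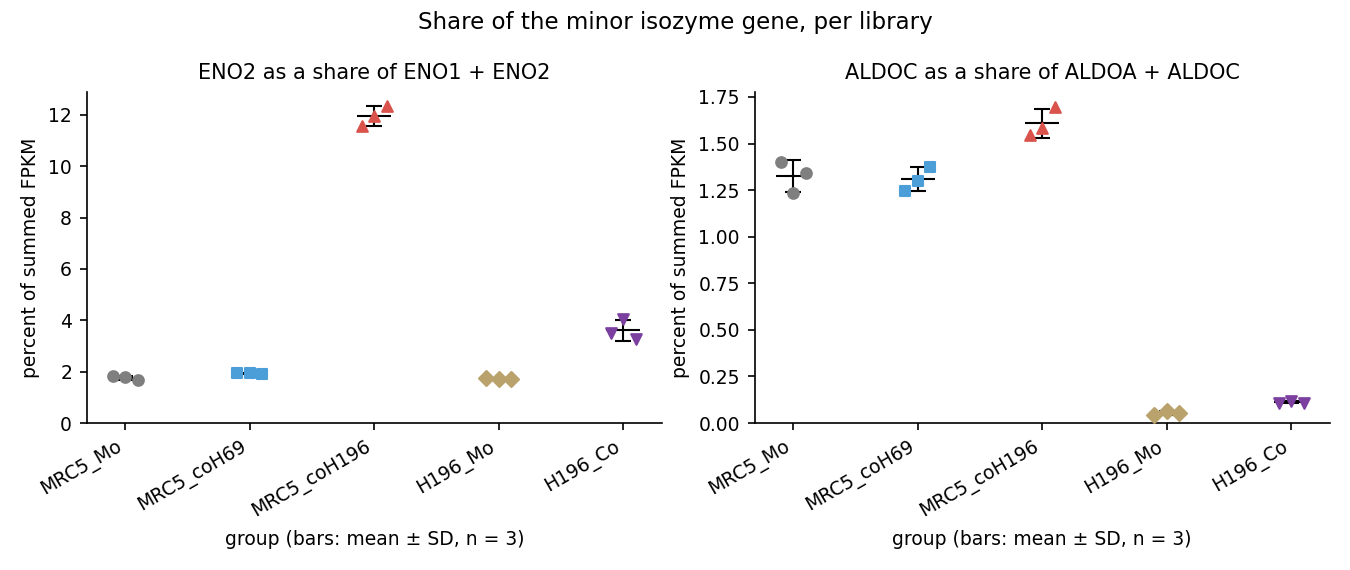
ENO2 as a percent of ENO1 and ENO2 FPKM (left) and ALDOC as a percent of ALDOA and ALDOC FPKM (right) in each library, with bars for mean and SD of the 3 libraries of a group and separate vertical scales that start at 0. MRC5_coH196 libraries reach 11.6% to 12.4% for ENO2, and for ALDOC every H196 library lies under 0.12%.

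The steps before and after were looked at through 9 genes, the glucose transporters SLC2A1 and SLC2A3, the hexokinases HK1 and HK2, the phosphofructokinases PFKL, PFKM and PFKP and the lactate dehydrogenases LDHA and LDHB. In MRC5_coH196 cells 7 of the 9 rose and 0 fell, where 17.2% of genes tested were called higher. The median log2 fold change was 1.06, against -0.00 over all genes. SLC2A3 rose from 16.9 ± 0.200 to 190.8 ± 11.6 FPKM (SD, n = 3) with a log2 fold change of 3.67, SLC2A1 by 2.70, HK2 by 2.38 and LDHA by 1.40. PFKM (0.08) and LDHB (-0.31) were not called, although LDHB passed the adjusted p alone (2.81e-07 with edgeR). In H196_Co cells 5 of the 9 rose and 0 fell, where 3.26% of genes tested were called higher. HK2 had 1.92, SLC2A3 1.63, SLC2A1 1.26, HK1 0.90 and LDHA 0.73. By adjusted p alone PFKL (0.57, adjusted p = 1.09e-05 with edgeR) and PFKP (0.46, adjusted p = 0.000154) passed too. In MRC5_coH69 cells 0 of the 9 were called, where 0.554% of genes tested were called in either direction. By adjusted p alone LDHA (0.18, adjusted p = 0.00486 with edgeR) and SLC2A1 (0.20, adjusted p = 0.0304) passed. The 0.554% includes the fold limit, so it is not the share for that rule. In H196_Co 12.0% of genes tested passed the adjusted p alone with higher values. The shares for MRC5_coH196 and MRC5_coH69 are not reported, so passing it there does not set these genes apart.

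The pentose phosphate branch, which leaves the pathway at glucose 6-phosphate ahead of GPI and makes NADPH and ribose, was followed through PGD, PGLS, RPIA, RPE, TKT and TALDO1. In MRC5_coH196 cells, where 17.2% of genes tested were called higher and 31.9% in either direction, 0 of these 6 rose and 1 fell. It was PGD, which makes ribulose 5-phosphate, with a log2 fold change of -1.19 (164 ± 2.23 to 64.1 ± 4.18 FPKM). The others had values of -0.44 for TKT, -0.40 for TALDO1, -0.34 for RPIA, -0.17 for RPE and 0.24 for PGLS and were not called. Each of them still passed the adjusted p alone, from 1.8e-09 for TKT to 0.0129 for RPE with edgeR. The share of all genes that passed the adjusted p alone is not reported for this comparison, so passing it does not set these genes apart. In H196_Co and MRC5_coH69 cells 0 of the 6 were called in either direction. Of all genes tested, 3.26% were called higher in H196_Co and 0.554% in either direction in MRC5_coH69. The share called lower in H196_Co is not reported, so the absence of falls there has no share beside it. By adjusted p alone with edgeR, PGD (-0.21, adjusted p = 0.0393) and TKT (0.29, adjusted p = 0.00465) passed in H196_Co, and PGD and TKT (-0.18 for each) in MRC5_coH69. With higher values 12.0% of genes tested passed it in H196_Co, and the other shares under that rule are not reported.

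The genes whose pattern lay nearest to the 10 were found by the distance between their 3 log2 fold changes (MRC5_coH196, MRC5_coH69 and H196_Co, each against its mono-culture) among 8315 other genes with at least 10 CPM on average in both tables. Nearest to ENO2 were SLC2A3 at a distance of 0.278, VEGFA, PPFIA4, MXI1 and BHLHE41, with MRC5_coH196 values of 3.08 to 3.84 and H196_Co values of 1.07 to 1.63. Nearest to the median of the 10 were GYS1, the muscle glycogen synthase, at 0.0848, PLOD1, a lysyl hydroxylase of collagen, JUN, CCN2 and C8orf58. These had MRC5_coH196 values of 0.97 to 1.20 and H196_Co values of 0.83 to 1.13.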

How the data were processed

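RNA of 9 MRC5 and 6 H196 libraries was captured with oligo(dT) beads. The submitters' processing notes name HISAT2 2.1.0, Bowtie2 2.3.4.3, RSEM 1.3.1 and GRCh38.p13. The authors deposited expected counts, which estimate each gene's reads and carry no normalization, and 93.7% of the MRC5 and 92.1% of the H196 values were whole numbers. FPKM was likewise deposited by the authors, scaled to gene length and library size. The authors' own fold changes, p-values and q-values and 30 per-library columns of TPM and normalized counts were not used. Whether counting used strand is not given in the sources used here.

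Expected counts were rounded and fitted with edgeR 4.0.16 in R 4.3.3 (TMM factors 0.916 to 1.05 within the tables, filterByExpr, quasi-likelihood, two-sided), with the 9 MRC5 libraries in one model, the 6 H196 libraries in another, and all 15 (TMM factors 0.814 to 1.26) for differences between the lines. SE was taken from the fold change and the root of the F statistic. Levels are mean ± SD of FPKM, and fitted fold changes are on the scale of TMM-scaled counts. Steps were tested on simulated data. Alternatives were DESeq2 1.42.0 (size factors and Wald test), limma 3.58.1 on log2 FPKM with a pseudocount of 1 or 0.1, other filters and fold limits, library sizes without the 10 genes, only the groups compared, a replicate block, shares from counts, and each library left out. The 10 genes, the lists, markers and tests were chosen with earlier results of these data known. Named are the 10 genes, members of the lists, and the 5 genes nearest to ENO2 and to the median. Promoter sequences are RefSeq's (GRCh38.p14), and all 10 genes matched by symbol. Some genes of the lists are not reported here.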

Additional observations from a re-analysis of the deposited data

Results flagged for a closer look

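The response to co-culture differed between MRC5 and H196 cells, by a test of the difference itself with edgeR's quasi-likelihood fit of all 15 libraries, for 6 of the 10 genes. Of all 13585 genes tested 51.2% did so, a share near that of the 10. Values are the log2 fold change of MRC5_coH196 against MRC5_Mo minus that of H196_Co against H196_Mo. ENO2 had 2.20 (adjusted p = 1.05e-17), PGK1 0.52 (adjusted p = 4.85e-06), ENO1 0.36 (adjusted p = 0.00153) and TPI1 0.26 (adjusted p = 0.0139), all larger in the fibroblasts. GPI had -0.69 (adjusted p = 4.64e-09) and ALDOC -0.55 (adjusted p = 0.0151), both larger in H196 cells. With single libraries left out the adjusted p of ALDOC reached 0.0938 and its value ran from -0.72 to -0.42, while the other 5 stayed under 0.05. The H196_Mo libraries held 18 to 29 counts of ALDOC, so its difference is the least precise. Groups of 3 libraries are too small to test a single library as an outlier.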

How the results depend on the processing

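The 9 genes called in MRC5_coH196 and the 0 in MRC5_coH69 kept their counts when any library was left out. A fold limit of 1 left 6 genes in MRC5_coH196 (without TPI1, PGAM1 and ENO1) and 5 in H196_Co (without GAPDH). With no fold limit 10 were called in H196_Co. PGAM1 lost its call on both FPKM scales in MRC5_coH196 (0.52 against MRC5_Mo and 0.46 against MRC5_coH69). Without H196_Co replicate 2 the count in H196_Co was 8, and without H196_Mo replicate 2 it was 7. In the difference of the responses, leaving out a library gave 2 to 3 genes past the limit.

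Reversed signs were seen in values near 0. Against MRC5_Mo, GPI in MRC5_coH69 was -0.0253 with limma on log2(FPKM + 0.1) and -0.0250 on log2(FPKM + 1). With 1 library left out, the MRC5_coH69 values ran from -0.0341 to 0.0280 for GAPDH, from -0.0419 to 0.00485 for ENO1 and from -0.0156 to 0.0133 for PKM, and the PKM difference of responses from -0.0970 to 0.0160. The cause was not tested.

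From CPM, which is not per length, the ENO2 share was 2.35%, 2.58%, 15.4%, 2.29% and 4.75% in MRC5_Mo, MRC5_coH69, MRC5_coH196, H196_Mo and H196_Co, and the ALDOC share 1.47%, 1.45%, 1.77% in the MRC5 groups and 0.123% in H196_Co. As a share of counts the 10 genes held 1.502%, 1.498%, 2.70%, 2.52% and 4.29% of the libraries.

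With the replicate block the counts called were 9, 0, 9 and 6, and no call with the fold limit changed. Replicate numbers did not pair the libraries: same-numbered libraries had correlations of deviations from -0.151 to 0.0334 in H196 and -0.116 to 0.0810 in MRC5, and 2 of 12 correlated best with their own number. Depth limits ALDOC in H196_Mo most.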

Other observations

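Other branches of the pathway moved unevenly in MRC5_coH196 cells, where 17.2% of genes tested were called higher and 31.9% in either direction. In H196_Co 12.0% of genes tested passed the adjusted p alone with higher values. Other shares under that rule are not reported, nor is the share called lower in H196_Co. Passing the adjusted p alone, or having no fall called in H196_Co, therefore does not set a branch apart. Of 5 genes of the hexosamine branch, which takes fructose 6-phosphate toward sugar nucleotides, GFPT1, GFPT2 and UAP1 rose (log2 fold changes 0.75, 0.76 and 1.38, edgeR) and PGM3 and GNPNAT1 were not called. By adjusted p alone GNPNAT1 (-0.30, adjusted p = 2.29e-05 with edgeR) and PGM3 (0.11, adjusted p = 0.0469) passed. UAP1 rose in H196_Co too (0.74), where 3.26% of genes tested were called higher, and GFPT2 passed the adjusted p alone there (0.42). In MRC5_coH69 0 of the 5 were called, where 0.554% of genes tested were called in either direction. Of 5 genes of the serine branch, which leaves at 3-phosphoglycerate, PHGDH and PSAT1 rose (0.84 and 0.77) and the folate enzyme SHMT1 fell (-0.71) in MRC5_coH196, and 0 were called in MRC5_coH69 and H196_Co. Of the serine branch, by adjusted p alone PHGDH and SHMT2 passed in H196_Co (0.34 and 0.36) with positive values and PSPH (-0.28) with a negative one. In MRC5_coH196 SHMT2 (0.43, adjusted p = 2.16e-08 with edgeR) and PSPH (-0.53, adjusted p = 1.12e-07) did so too. Of the gluconeogenic bypass, PCK2 rose in MRC5_coH196 (0.588, close to the limit) and PC had -0.57 (adjusted p = 2.96e-06 with edgeR) and was not called. In H196_Co PCK2 had a similar value of 0.562 (adjusted p = 4.75e-05 with edgeR), just under the limit, and PC had 0.15 (adjusted p = 0.233). The tested genes of the glycerol phosphate branch (GPD1L and GPD2) and the 2,3-bisphosphoglycerate branch (BPGM and MINPP1) were not called in any comparison, with values between -0.49 and 0.19. Among them GPD1L, GPD2 and MINPP1 passed the adjusted p alone in MRC5_coH196, with values of -0.30, -0.49 and -0.40. GPD2 did so in H196_Co too (-0.24, adjusted p = 0.034 with edgeR). Of 5 epithelial markers 3 were tested, and KRT8 and KRT19 rose in MRC5_coH196 (0.83 and 0.99). KRT18 had -0.25 (adjusted p = 0.000643 with edgeR) and was not called, and it was lower than in MRC5_coH69 (-0.65). By adjusted p alone KRT8 and KRT18 passed in MRC5_coH69 (0.31 and 0.40) and in H196_Co (0.43 and 0.29). KRT19 did not pass in MRC5_coH69 (0.14) and was not tested in H196_Co. On FPKM the summed level of the list was 106 to 112 FPKM in MRC5_Mo, 128 to 144 in MRC5_coH69, 108 to 114 in MRC5_coH196 and 179 to 232 in H196 libraries. The part of these cell markers in the results was not tested.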
